A study of Danio rerio with 18 samples.

Results

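Ribose methylation was followed at 21 sites in the 5' domain of zebrafish 18S ribosomal RNA (rRNA). The authors list 98 methylated sites in the rRNAs of this fish, 35 of them in 18S. A site was taken into the group when the number in its name, which follows human numbering, was at most 660. The files name no domains, so the domain rests on this number alone. From 5' to 3' the members were 18S-Am27, Am99, Um116, Um121, Am166, Um172, Um286, Um287, Cm346, Um354, Um428, Gm436, Cm462, Am468, Am484, Gm509, Am512, Cm517, Gm601, Um627 and Gm644. The base of each site stands before the m, which marks the methyl group. The last member inside the limit, Gm644, had stage means between 0.905 and 0.955, and the first site outside it, Am668, between 0.862 and 0.892, on a scale from 0 for no methylation to 1 for full methylation.

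The study measured these sites in 14 libraries of whole-cell RNA from 5 stages. The unfertilized egg, the 32-cell stage, the 12-somite stage and the protruding-mouth stage, a larva, had 3 libraries each, and adult tail, which the labels also call trunk, had 2. Libraries of a stage are biological replicates, per the series' design text. The labels give no strain, treatment, exact age or number of animals per library. The adult libraries are called A and B here because their column numbers do not match the sample titles.

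RiboMeth-seq, the assay used, reads methylation from the places where alkali breaks RNA. A methyl group on the 2' oxygen of a ribose protects the bond next to it, so few sequenced fragments end there. The score of a site is 1 minus its read ends over the weighted mean of the read ends at 6 positions on each side. Zebrafish carry an early rRNA, laid down in the egg, and a late rRNA made by the growing animal. Egg, 32-cell and 12-somite reads were placed on the early rRNA and protruding-mouth and adult reads on the late rRNA, per the file headers.

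Most ribose methyl groups of eukaryotic rRNA are set by fibrillarin, an enzyme that is led to each site by a box C/D small nucleolar RNA (snoRNA) that pairs with the sequence around it. The 5' domain forms much of the body of the small ribosomal subunit. In human rRNA, Cm462 is guided by the snoRNA U14, which in yeast is also needed to process the 18S precursor. Um627 lies in the conserved loop of the domain that reaches the decoding centre, where codons are read.

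Sequences around selected sites are printed 5' to 3' as the deposited sheets give them. They cover Um627 and some of the sites that varied most or that differ between early and late rRNA. Am27 and Gm644, which also have a difference nearby, are not printed. Capitals mark the listed methylated nucleotides, and positions count from 1 at the 5' end of the early or the late 18S rRNA. The place of the rRNA genes in the genome was not analysed here.
Um286 and Um287, early 18S positions 323 to 344: cggccucgcuUUggugacucua
Um286 and Um287, late 18S positions 286 to 307: cccggccgcuUUggugacucua
Cm346 and Um354, early 18S positions 382 to 410: acgguucauuCgaaugucUgcccuaucaa
Cm346 and Um354, late 18S positions 346 to 374: acgauucauuCgaaugucUgcccuaucaa
Um428 and Gm436, early 18S positions 464 to 492: aggguucgauUccggagaGggagccugag
Cm462 and Am468, early 18S positions 498 to 524: gcuaccacauCcaaggAaggcagcagg
Gm509, Am512 and Cm517, early 18S positions 545 to 573: gacacggagaGguAgugaCgaaaaauaac
Gm509, Am512 and Cm517, late 18S positions 509 to 537: gacacggggaGguAgugaCgaaaaauaac
Um627, early 18S positions 663 to 683: gcagccgcggUaauuccagcu

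Early and late 18S rRNA differ in this domain, but mostly away from the methylated sites. The stretch up to Gm644 is 690 nt long in early and 654 nt in late rRNA. It holds 22 substitutions, 45 positions found only in early rRNA and 9 found only in late rRNA. Of the 21 members, 6 had a difference within 6 positions, the reach of the score's flank. Am27 had the substitution U24C (early base, early position, late base), Gm509 and Am512 shared A552G and Gm644 had G696A. Um286 and Um287 lie just after 2 nucleotides, at early positions 327 and 328, that late rRNA lacks. The methylated nucleotide itself was the same in both rRNAs at each member. The windows of Um428 with Gm436, of Cm462 with Am468 and of Um627 are the same in early and late rRNA.

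The members were also described by place and base. U was the methylated base at 8 sites, A at 6, G at 4 and C at 3. G followed the site at 10 of 21 members, against 29.4% G over the early stretch, and U preceded it at 9, against 20.1% U. In contrast, G preceded the site at 4 members and C followed it at 4, against 28.6% C. These counts were not tested. The closest neighbours were Um286 and Um287, which are adjacent, and 11 members had another listed site within 6 positions. Such a neighbour lowers the flanking mean, because a methylated position has few read ends.

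The libraries held between 1494730 read ends on rRNA, in adult A, and 15358081, in egg library 1. The 5' domain took 148455 to 1892734 of them. The lowest weighted flanking mean of a member was 29.5 read ends, at Am484 in 12-somite library 3. Several libraries carry the same sequencing barcode: egg 1 with 32-cell 2, egg 2 with 32-cell 3, 12-somite 1 with protruding-mouth 1, 12-somite 2 with protruding-mouth 2 and adult A, and 12-somite 3 with protruding-mouth 3 and adult B. Per the file headers, the authors corrected some stage means for an effect of the barcode, and the scores below are uncorrected unless called corrected.

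Methylation of the 5' domain was close to complete at most members and at every stage. A stage mean of at least 0.75 was classed as full, one under 0.25 as weak and the rest as partial. In egg 19 members were full and 2 partial, and the counts in adult tail were the same. At 32-cell and at 12-somite 17 members were full and 4 partial. At protruding-mouth 18 were full, 2 partial and 1, Um354, weak, and without protruding-mouth library 1 or library 3 none was weak. The median over members lay between 0.919, at protruding-mouth, and 0.943, in egg. With corrected scores 18 members were full and 3 partial at 32-cell and at 12-somite, where Cm462 became full. In adult tail 20 were then full and 1, Um354, partial. The counts in egg and at protruding-mouth did not change with the correction.

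In every one of the 14 libraries, 15 of the 21 members scored at least 0.75. The 6 others were Am99, Cm346, Um354, Gm436, Cm462 and Gm509. Among the other listed 18S sites 12 of 14 scored at least 0.75 in every library, and among all listed sites 76 of 98 did. Unlisted positions of the same stretch give the background of the score: the median of their stage means was 0.126 in egg, and for the following stages 0.138, 0.194, 0.156 and, in the adult, 0.0863. The 95th percentiles were 0.537, 0.591, 0.633, 0.520 and 0.515 in the same order. Under them lay the stage means of Um354 at all stages before adult tail and of Gm436 in egg, 32-cell and 12-somite. So did Cm346 at 32-cell and 12-somite and Cm462 at 12-somite. At these stages the score alone does not set these members apart from unlisted positions.

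**Figure D1:**
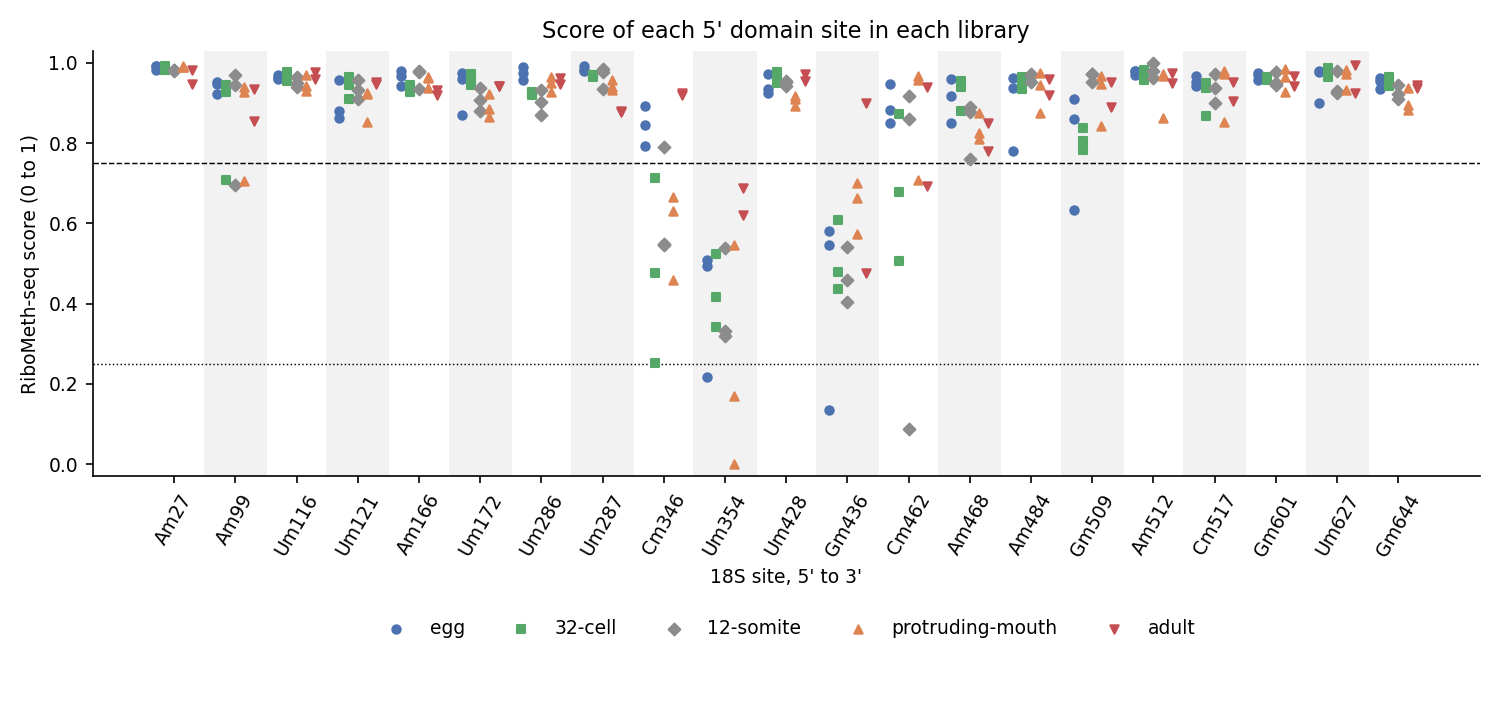
RiboMeth-seq score (0 to 1, vertical axis) of the 21 sites of the 5' domain in order along 18S rRNA, with 1 point per library coloured and shaped by stage. The dashed line marks 0.75 and the dotted line 0.25, the limits of the classes. Most sites sit near 1 in all 14 libraries, and Cm346, Um354, Gm436 and Cm462 spread widely below the dashed line.

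The steadiest members were Gm601, whose stage means spanned 0.0124, Um116 (0.0205) and Am27 (0.0258). Am27, the first methylated site from the 5' end, scored between 0.947 and 0.993 over the 14 libraries. Um116 scored between 0.929 and 0.978 and Um121, 5 nt further on, between 0.853 and 0.964. Am166 ranged from 0.921 to 0.980 and Um172 from 0.865 to 0.975. These 5 sites near the 5' end lay above 0.75 in all libraries.

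Towards the 3' end of the domain, Am512 scored between 0.862 and 1, Cm517 between 0.852 and 0.981 and Gm601 between 0.927 and 0.983. Um627, in the loop near the decoding centre, scored between 0.900 and 0.995, and Gm644 between 0.882 and 0.965. For Um627 the stage mean was 0.952 ± 0.0450 (SD, n = 3) in egg, and in adult tail it was 0.960 ± 0.0493 (n = 2). Um428, in the middle of the domain, scored between 0.892 and 0.977.

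The egg and the adult tail stand at the ends of the developmental series and carry early and late rRNA, so they were compared first. Of the 21 members 1, Um287, passed the threshold of an adjusted p of 0.05 in limma, against 3.06% of all 98 sites. It was lower in adult tail, as were 1.02% of all sites, while 0 members were higher, against 2.04%. The other 20 members did not pass, with adjusted p-values of 0.333 or more. The adult and egg libraries did not overlap at 6 of 21 members, against 32.7% of all sites. The median difference of the members, adult minus egg, was -0.00950, and that of all sites -0.00171.

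Um287 scored 0.992, 0.982 and 0.979 in egg libraries 1, 2 and 3. It scored 0.964, 0.969 and 0.969 at 32-cell, 0.934, 0.984 and 0.976 at 12-somite and 0.939, 0.958 and 0.932 at protruding-mouth. In adult A it scored 0.877 and in adult B 0.880. Both adult libraries were lower than the other 12, and the adult scores overlapped with those of no other stage.

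The stage mean of Um287 went from 0.984 ± 0.00641 (SD, n = 3) in egg to 0.879 ± 0.00188 (n = 2) in adult tail. It fell by 0.106 (SE 0.0151, 95% interval -0.139 to -0.0725, limma adjusted p 0.00142), more than the spread between libraries. It passed under each of 22 alternatives that gave a value, with adjusted p-values of 0.000378 to 0.0230. Stage, body part, rRNA reference and barcode, of which these groups share none, all change together and cannot be told apart.

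The counts behind Um287 were small at the site and uneven beside it. The site held 55 read ends in egg library 1 against a weighted flanking mean of 6531, and 15 against 122 in adult A. With the flanking mean held fixed, an exact Poisson 95% interval of the score was 0.797 to 0.931 in adult A and 0.853 to 0.903 in adult B. The lowest bound among the egg libraries was 0.970. These intervals cover counting error only. Each fragment has a 5' and a 3' end, and the scores above count both. From 5' ends alone Um287 scored 0.991 ± 0.00545 in egg and 0.951 ± 0.0162 at protruding-mouth (SD, n = 3 each). From 3' ends alone it scored 0.886 ± 0.0562 and 0.910 ± 0.0247. From egg to protruding-mouth 27.0% of the ends at the site were 3' ends, against 8.19% in the weighted flanking means. The adult scores were not split, so the fall was not examined within either kind of end.

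The position 5 nt before Um287 held far more read ends than the rest of its flank in egg. It held 7.87, 4.98 and 5.84 times the mean of the 12 flanking positions in egg libraries 1, 2 and 3. The ratio was 4.52, 3.86 and 3.15 at protruding-mouth and 2.37 and 2.00 in adult A and B, lower than in egg. The 2 other stages overlapped with the adult: it was 3.76, 2.65 and 2.04 at 32-cell and 4.002, 2.35 and 2.40 at 12-somite. The score was therefore also computed against each flank alone, a step chosen after these values were seen and not tested. Against the downstream flank alone the egg libraries gave 0.940 ± 0.00695 (SD, n = 3), and the adult libraries 0.824 ± 0.0395 (n = 2). Against the upstream flank alone these values were 0.991 ± 0.00402 (n = 3) and 0.905 ± 0.00944 (n = 2). In both cases each adult library was below each egg library. Against the upstream flank the adult libraries were also the lowest of the 14, but against the downstream flank 12-somite 1, at 0.806, was below adult B, at 0.852. The unlisted position 1 nt after Um287 held 0.0718, 0.188 and 0.178 times the flanking mean in egg, and 0.359 and 0.535 in adult A and B. It held 0.334, 0.342 and 0.493 at 32-cell, 0.647, 0.219 and 0.664 at 12-somite and 0.566, 0.333 and 0.721 at protruding-mouth. In egg this position, early 335, had the highest stage mean score of the unlisted positions, 0.788. Its change between stages was not tested.

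**Figure D2:**
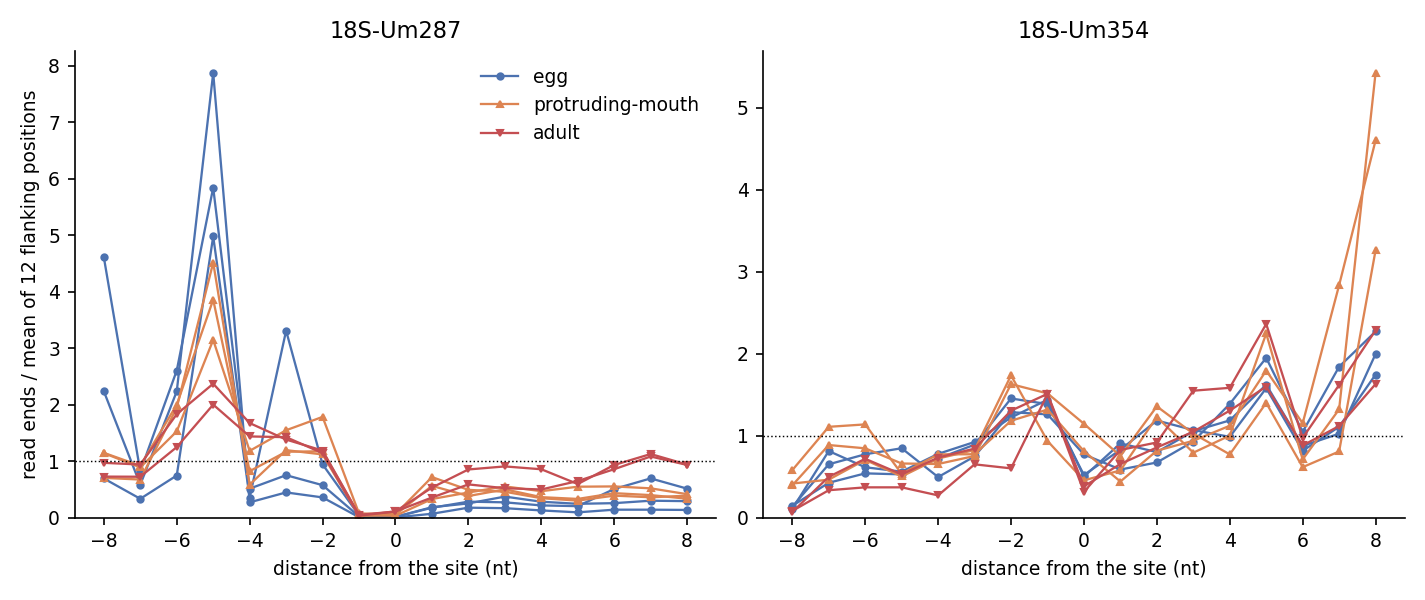
Read ends at each position from 8 nt before to 8 nt after Um287 (left) and Um354 (right), divided by the mean of the 12 flanking positions (vertical axis, 1 at the dotted line), with 1 line per library for egg, protruding-mouth and adult. Read ends drop to near 0 at Um287 and at Um286 beside it, with a peak 5 nt before that reached 7.87 in egg library 1 and 2.00 in adult B. At Um354 the dip is shallow.

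Um286, the neighbour of Um287, stayed higher in adult tail. It scored 0.989, 0.958 and 0.973 in egg, 0.928, 0.919 and 0.926 at 32-cell and 0.931, 0.903 and 0.870 at 12-somite. It scored 0.966, 0.950 and 0.926 at protruding-mouth and 0.947 and 0.962 in adult A and B. The 3 32-cell libraries lay below the 3 egg libraries, and the adult libraries fell among those of egg and protruding-mouth. Its difference between adult tail and egg was -0.0188 (SE 0.0184, limma adjusted p 0.684).

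Cm346 had the widest range of stage means of the domain, 0.441, and was highest in adult tail. It scored 0.893, 0.793 and 0.844 in egg, 0.713, 0.476 and 0.251 at 32-cell and 0.789, 0.546 and 0.550 at 12-somite. It scored 0.666, 0.632 and 0.458 at protruding-mouth and 0.924 and 0.919 in adult A and B. Each adult library was above the other 12, and each 32-cell library was below each egg library. The 12-somite and protruding-mouth libraries lay between and overlapped with those of 32-cell.

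From egg to 32-cell the mean of Cm346 went from 0.843 ± 0.0501 to 0.480 ± 0.231 (SD, n = 3 each). The difference was -0.363 (SE 0.106, 95% interval -0.599 to -0.128), with a limma adjusted p of 0.432. It passed in 2 of 26 alternatives: with the barcode as a block (-0.479, limma adjusted p 0.0283) and without 32-cell library 1 (-0.480, adjusted p 0.0444). Between libraries with the same barcode, 32-cell 2 was lower than egg 1 with a difference of -0.416, and 32-cell 3 was lower than egg 2 with a difference of -0.542.

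The 2 kinds of read end gave Cm346 different scores. Read ends are of 2 kinds, the 5' end and the 3' end of a fragment, and the stage sheets from egg to protruding-mouth hold the 5' ends separately. From 5' ends alone Cm346 scored 0.966 ± 0.0283 in egg, 0.964 ± 0.00836 at 32-cell, 0.955 ± 0.0185 at 12-somite and 0.769 ± 0.140 at protruding-mouth (SD, n = 3 each). From 3' ends alone it scored 0.716 ± 0.0416, 0.272 ± 0.263, 0.484 ± 0.155 and 0.454 ± 0.213. At protruding-mouth 2 libraries were under 0.75 from 5' ends too. The score from 5' ends was the higher one in 12 of 12 libraries, and the means from 5' ends differed little between egg and 32-cell. That difference was -0.00232 (limma adjusted p 0.989), against -0.444 from 3' ends alone, which did not pass either (limma adjusted p 0.993).

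Um354, 8 nt after Cm346, was partial in 4 stages and weak at protruding-mouth. It scored 0.508, 0.495 and 0.216 in egg, 0.524, 0.342 and 0.417 at 32-cell and 0.331, 0.319 and 0.538 at 12-somite. At protruding-mouth it scored 0, 0.546 and 0.170, where the first value was -0.103 before values below 0 were set to 0. Adult A scored 0.687 and adult B 0.622, above the other 12 libraries, which overlapped widely between stages. Um354 was the only member under 0.75 in all 14 libraries.

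The stage means of Um354 were 0.406 ± 0.165 in egg, 0.239 ± 0.279 at protruding-mouth (SD, n = 3 each) and 0.655 ± 0.0462 in adult tail (n = 2). Adult minus egg was 0.248 (SE 0.144, limma adjusted p 0.484). The scores from 5' and 3' ends alone had medians of 0.397 and 0.474 over 12 libraries, and neither kind was the higher one in more than 6. The authors' correction raised egg library 3 to 0.475.

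**Figure D3:**
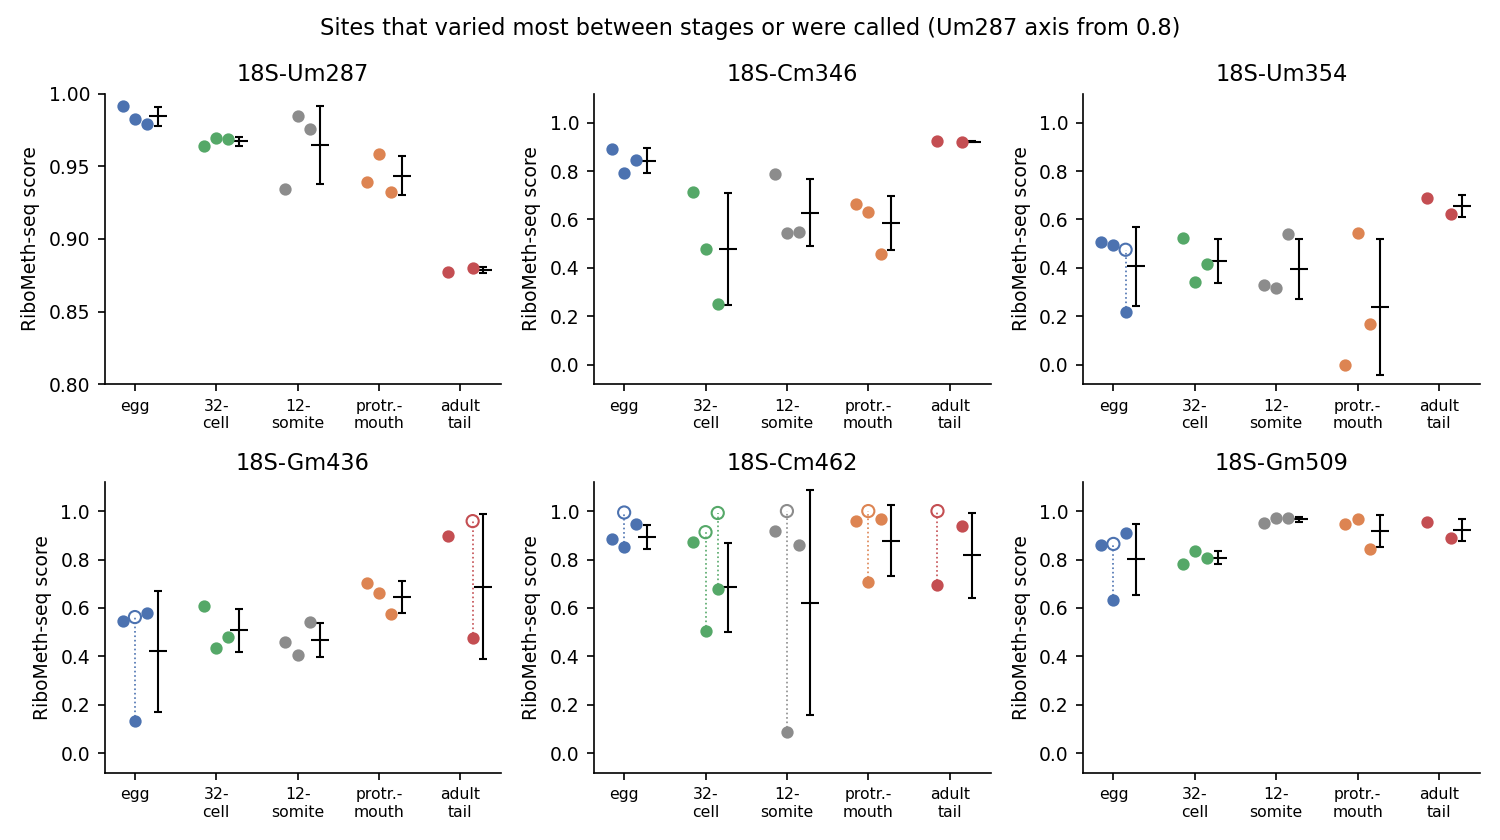
RiboMeth-seq score by stage of Um287 (vertical axis from 0.8) and of 5 sites with wide ranges (axis spanning 0 to 1). Filled points are uncorrected libraries, open circles joined by dotted lines are the same libraries after the authors' barcode correction as rebuilt here, and black bars are the mean and SD of the uncorrected scores. Both adult points of Um287 lie below 0.9, and the 12-somite library of Cm462 at 0.0868 moves to 1 with the correction.

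Gm436, 8 nt after Um428, was also partial. It scored 0.546, 0.135 and 0.581 in egg, 0.608, 0.436 and 0.479 at 32-cell and 0.458, 0.405 and 0.541 at 12-somite. It scored 0.701, 0.662 and 0.574 at protruding-mouth and 0.899 and 0.476 in adult A and B. The protruding-mouth libraries lay above those of 12-somite, and the 2 adult libraries differed so widely that they overlapped with all stages.

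The call at Gm436 depends on the correction. Adult minus egg was 0.267 (SE 0.141, limma adjusted p 0.422) with uncorrected scores. The correction raised egg library 2 from 0.135 to 0.563 and adult B from 0.476 to 0.959, the second by arithmetic from the authors' mean. Corrected stage means were 0.563 ± 0.0174 in egg (SD, n = 3) and 0.929 ± 0.0421 in adult tail (n = 2). The corrected egg mean mixes 2 measures, since only library 2 took its 5' score and the others kept both kinds of end. From 5' ends in all 3 egg libraries the mean was 0.713 ± 0.160 (SD, n = 3), higher and with a wider spread. With corrected scores Gm436 passed the limma threshold in both comparisons with adult tail and over all 5 stages.

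Cm462, the site that U14 guides in human, had the lowest single score of the domain after the 0 of Um354. It scored 0.884, 0.851 and 0.947 in egg, 0.872, 0.506 and 0.678 at 32-cell and 0.917, 0.0868 and 0.861 at 12-somite. It scored 0.957, 0.709 and 0.966 at protruding-mouth and 0.694 and 0.940 in adult A and B. The libraries of all stages overlapped. Of the 5 libraries under 0.75, 12-somite 2, protruding-mouth 2 and adult A carry the same barcode.

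At Cm462 the 3' ends gave the low scores, and there were few 5' ends to set beside them. From 5' ends alone it scored between 0.913 and 1 in the 12 libraries from egg to protruding-mouth, and from 3' ends alone between 0.0825 and 0.965. The weighted flanking mean of the 5' ends was 11.2 in 12-somite 2, 0.767 in 12-somite 3 and 7.23 in protruding-mouth 3, so a 5' score near 1 says little in these libraries. In 12-somite library 2 all 2167 read ends at the site were 3' ends, and 0 were 5' ends. The authors' correction put in 5' scores at egg 2, 32-cell 2 and 3, 12-somite 2 and protruding-mouth 2, and arithmetic gave 1 for adult A. The 5' flanking mean was 851 in egg 2, 11.5 and 127 in 32-cell 2 and 3, and 30.3 in protruding-mouth 2. After the correction the stage means of Cm462 spanned 0.0488, against 0.272 before.

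Gm509 had its lowest stage means in the 2 earliest stages. It scored 0.861, 0.633 and 0.909 in egg, 0.783, 0.837 and 0.805 at 32-cell and 0.952, 0.973 and 0.973 at 12-somite. It scored 0.948, 0.967 and 0.843 at protruding-mouth and 0.953 and 0.889 in adult A and B. The 12-somite libraries lay above all 6 of egg and 32-cell. The egg overlapped with the 2 late stages, since egg 3 was above protruding-mouth 3 and adult B. Adult minus egg was 0.120 (SE 0.0675, limma adjusted p 0.484).

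From 32-cell to 12-somite the mean of Gm509 went from 0.808 ± 0.0272 to 0.966 ± 0.0116 (SD, n = 3 each). The difference was 0.158 (SE 0.0604, 95% interval 0.0240 to 0.292, limma adjusted p 0.761). It passed with only these 2 stages in the fit (adjusted p 0.0216) and with corrected scores (adjusted p 0.0351), where egg library 2 was raised from 0.633 to 0.864. From 5' ends alone the means were 0.817 ± 0.0408 and 0.960 ± 0.0323, and from 3' ends alone 0.811 ± 0.0214 and 0.973 ± 0.0238 (n = 3 each). The weighted flanking mean at Gm509 was only 36.5 read ends in 12-somite library 3, where the site held 1.

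Am468 scored 0.960, 0.917 and 0.851 in egg, 0.953, 0.881 and 0.939 at 32-cell and 0.761, 0.878 and 0.891 at 12-somite. It scored 0.811, 0.876 and 0.825 at protruding-mouth and 0.849 and 0.780 in adult A and B. Both adult libraries lay below the 3 egg libraries. The 12-somite and protruding-mouth libraries overlapped with both, and the 32-cell libraries overlapped with egg and lay above both adult libraries. Adult minus egg was -0.0952 (SE 0.0446, limma adjusted p 0.333). From 5' ends alone its means were 0.978 ± 0.00440 in egg and 0.996 ± 0.00671 at protruding-mouth, and from 3' ends alone 0.880 ± 0.0819 and 0.818 ± 0.0571 (SD, n = 3 each). The weighted flanking mean of the 5' ends was 172, 9.77 and 18.3 in protruding-mouth libraries 1, 2 and 3. Of 5' ends the site held 2, 0 and 0 there, so a 5' score near 1 says little in libraries 2 and 3.

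Am99 was full in 11 libraries and lower in 3. It scored 0.948, 0.922 and 0.953 in egg, 0.927, 0.708 and 0.944 at 32-cell and 0.945, 0.696 and 0.969 at 12-somite. It scored 0.928, 0.704 and 0.940 at protruding-mouth and 0.854 and 0.934 in adult A and B. The 3 low libraries all have the number 2 in their stage, and 2 of them carry the same barcode. The correction raised them to 0.950, 0.953 and 0.965, and the corrected stage means spanned 0.0616.

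Am484 scored 0.962, 0.938 and 0.780 in egg, 0.954, 0.965 and 0.935 at 32-cell and 0.953, 0.972 and 0.966 at 12-somite. It scored 0.876, 0.975 and 0.944 at protruding-mouth and 0.958 and 0.921 in adult A and B. Only egg library 3 stood apart, and the stages overlapped. From 5' ends alone that library scored 0.975, and from 3' ends alone 0.678.

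Which kind of read end was counted mattered at several members. From 5' ends alone 18 of 21 members scored at least 0.75 in each of the 12 libraries from egg to protruding-mouth, and from 3' ends alone 12 did. The minimum of 10 read ends was applied to both kinds together, and 5 of 252 flanking means of 5' ends, at 3 members, and 4 of 252 of 3' ends, at 4 members, were under 10. Counting only members that also reached 10 in each library, 15 and 9 members were full. The median over members of the 5' score was 0.966, and that of the 3' score 0.932. The difference was widest at Cm346, with medians of 0.959 from 5' ends and 0.534 from 3' ends. Cm462 had medians of 0.993 and 0.837, and Am468 of 0.981 and 0.878. At 7 members, Um121, Um286, Um354, Gm509, Am512, Cm517 and Gm644, the 3' score had the higher median. The separate 5' columns of the adult libraries were not used here, so the adult scores were not split by kind of read end.

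**Figure D4:**
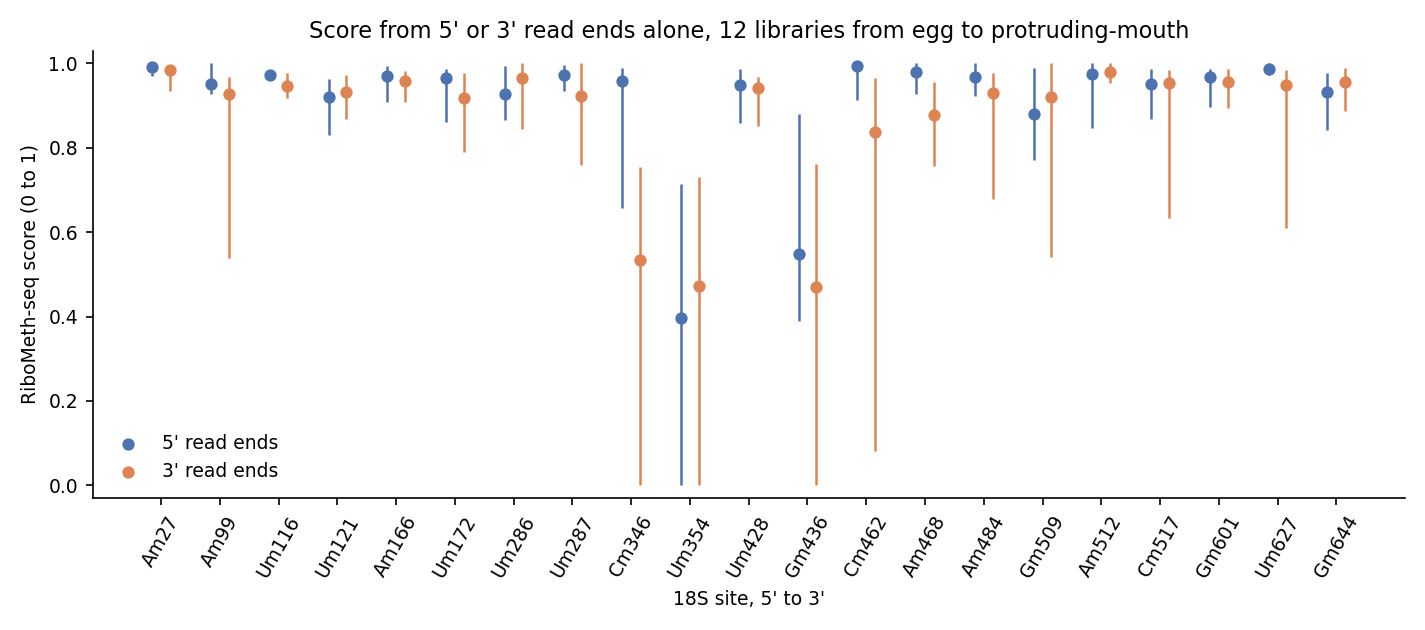
Score of each site (0 to 1, vertical axis) from 5' read ends alone and from 3' read ends alone, where points are medians over the 12 libraries from egg to protruding-mouth and lines run from the lowest to the highest library. The 2 kinds lie close together at most sites, and at Cm346 the medians are 0.959 and 0.534.

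The authors' barcode correction touched 5 members, Am99, Um354, Gm436, Cm462 and Gm509, and 12 of their stage means. As rebuilt here it changed 13 library values, 11 to the score from 5' ends alone and 2 by arithmetic in adult tail. The 5 members are among the 6 that fell under 0.75 in some library, and Cm346 is the one that was not corrected. The other 16 members kept their deposited means.

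The adult tail was next compared with the protruding-mouth larva, since both were read on late rRNA. Um287 again was the 1 of 21 members that passed, against 6.12% of all sites, with 0 members higher and 1 lower, against 3.06% each. It fell by 0.0648, from 0.943 ± 0.0135 (n = 3) to 0.879 ± 0.00188 (SD, n = 2), with a standard error of 0.0151 and a limma adjusted p of 0.0351. Within barcodes it was lower in adult A than in protruding-mouth 2, with a difference of -0.0812, and in adult B than in protruding-mouth 3, with a difference of -0.0525. This call passed in 10 of 23 alternatives, with adjusted p-values of 0.0203 to 0.606. The barcode as a block ended it (-0.0735, adjusted p 0.0674), as did the logit scale (0.411), the quasi-binomial model (0.606), limma with trend and robust on (0.0561), 2 flanking positions (just over the threshold) and the fit of these 2 stages alone (0.144). Removing egg 2, 32-cell 3, any protruding-mouth library or either adult library ended it too. Stage and body part change together between these groups and cannot be told apart.

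In the same comparison 5 members had an unadjusted p under 0.05, against 13.3% of all sites, and the libraries of the 2 stages did not overlap at 9 members, against 33.7%. Um428 had a difference of 0.0568 (SE 0.0159, limma adjusted p 0.0672), from 0.907 ± 0.0134 (n = 3) to 0.964 ± 0.0129 (SD, n = 2). Um354 had a difference of 0.416 (95% interval 0.0961 to 0.736) and Cm346 of 0.336 (0.0730 to 0.600), both with a limma adjusted p of 0.158. Cm346 passed on the logit scale (adjusted p 0.0383) and with the barcode as a block (0.397, adjusted p 0.0198). Within barcodes Cm346 was higher in adult A by 0.292 and in adult B by 0.461. Am27 had a difference of -0.0258 (adjusted p 0.357).

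**Figure D5:**
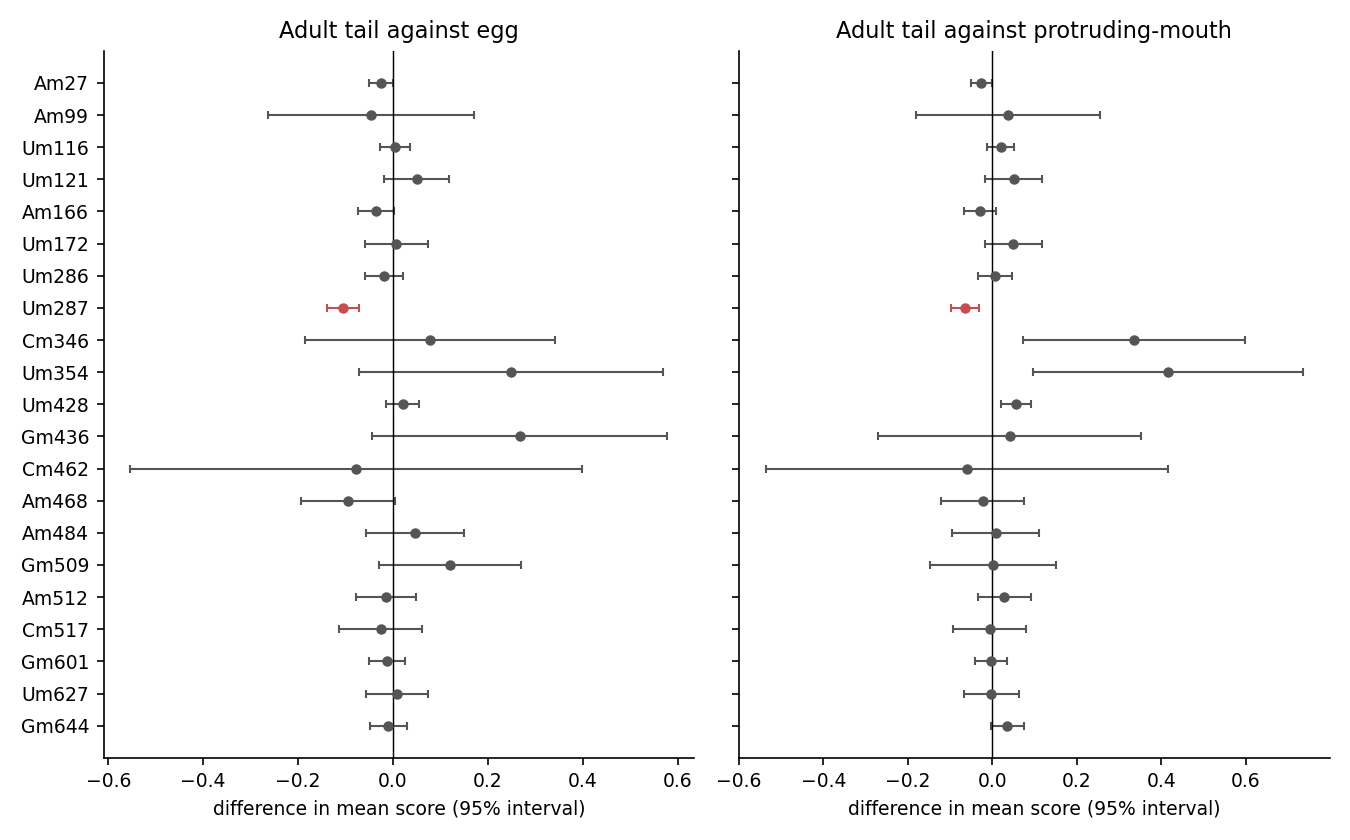
Difference in mean score of each site between adult tail and egg (left) and between adult tail and protruding-mouth (right), adult minus the other stage, with 95% intervals from limma that are not adjusted for the number of sites. Red marks an adjusted p under 0.05, which Um287 alone reached, at -0.106 and -0.0648. The intervals of Cm462, Um354 and Gm436 are the widest.

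Consecutive stages before the adult showed no call among the members. Between 32-cell and egg 0 of 21 members passed in limma, against 0% of all sites, and 2, Cm346 and Um286, had an unadjusted p under 0.05, against 5.10%. The quasi-binomial model of the counts called 0 as well. The libraries did not overlap at 3 members, against 14.3%. Um286 had a difference of -0.0490 (95% interval -0.0854 to -0.0126, limma adjusted p 0.432). It was positive, at 0.0598, from 3' ends alone, but these made up only 6.87% of the weighted flanking means of Um286 from egg to protruding-mouth.

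Between 12-somite and 32-cell 0 members passed in limma, against 0% of all sites, and 0 in the quasi-binomial model. Gm509 was the 1 member with an unadjusted p under 0.05, against 5.10% of all sites. The libraries did not overlap at 2 members, against 7.14%. The median difference was -0.00660 over members and -0.00376 over all sites.

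Between protruding-mouth and 12-somite, where the reads move from early to late rRNA, 0 members passed in limma, against 0% of all sites, and 0 in the quasi-binomial model. Um428 and Um286 had an unadjusted p under 0.05, against 6.12% of all sites, and the libraries did not overlap at 3 members, against 7.14%. Um428 had a difference of -0.0427 (95% interval -0.0743 to -0.0111, limma adjusted p 0.463). Um286 had a difference of 0.0463 (0.00986 to 0.0827, limma adjusted p 0.463), and a negative one of -0.0469 from 3' ends alone. Of 3' ends Um286 held 0 in each 12-somite library, against weighted flanking means of 48.8, 53.1 and 6.91. Within shared barcodes Um428 was lower at protruding-mouth in 3 of 3 pairs, by differences of -0.0600, -0.0250 and -0.0430. This was not particular to Um428, since Um121, Um172 and Gm509 were also lower in each pair. Am27, Um286, Gm436, Cm462 and Um627 were higher in each pair.

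Over all 5 stages Um287 was again the 1 member past the threshold of the limma F test (adjusted p 0.0109), against 3.06% of all sites. Um286 (adjusted p 0.157), Um428 and Cm346 (0.162 each) followed. The test draws on the same libraries as the comparisons above and adds no independent evidence. In the 4 stages without adult tail 0 members passed.

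Members were also grouped by sequence and place and described by the range of their stage means. The 6 members with an early-to-late difference within 6 positions had a median range of stage means of 0.0607, the 15 others 0.0677 and all 98 sites 0.0645. The 11 members with another listed site within 6 positions had a median range of 0.0677 and the 10 others 0.0644. By 3 equal parts of the number range, from 5' to 3', the medians were 0.0440, 0.186 and 0.0493. The middle part, which holds Um287, Cm346, Um354 and Gm436, thus had the widest. Its libraries also varied most within a stage, with a median SD of 0.0794, against 0.0257 in the first part and 0.0452 in the last. A wider spread between libraries by itself widens the range of stage means. A range of at least 0.1 was found at 7 of 21 members, at 4 of the other 14 sites of 18S and at 30 of all 98. These are descriptions of lists with few members, and no difference between them was tested.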

How the data were processed

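Per the labels' protocols, RNA was broken by alkali, a gel fraction of 20 to 40 nt received linkers through a plant tRNA ligase, and sequencing used an Ion Proton. The submitters' processing notes name cutadapt 2.0, a read trimmer, and Bowtie2 2.3.4.1, a read mapper. The deposited stage sheets give raw counts of read ends at each rRNA position and, per library, a RiboMeth-seq fraction of 0 to 1. The overview holds the authors' mean score and SD of each stage, and some of these means carry a barcode correction, per the file headers. Their correction was rebuilt by matching those means, so which libraries were corrected is inferred.

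Scores were recomputed from the counts with 6 flanking positions on each side, weighted from 1 to 0.5. In the 12 libraries from egg to protruding-mouth they differed from the deposited fraction by at most 4.97e-13. The adult scores were not compared with a deposited fraction per library. Adult column numbers do not match the sample titles, so the columns of both kinds of end together were used as libraries A and B. The other 10 adult columns were not used. Sites needed an unweighted flanking mean of 10 read ends in each library, both kinds of end together, and 0 were left out. The 4 small-RNA samples were not used.

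All 98 sites were fitted with limma 3.58.1 in R 4.3.3 on the untransformed score, with stage means over 14 libraries. Each of 5 contrasts and an F test was adjusted by Benjamini-Hochberg over the 98 sites. The procedure was tested on simulated data. Their noise was drawn independently for each library, so they do not cover the correlations between libraries given below. Other steps used Python 3.11.15, numpy 2.4.6, pandas 2.3.3, Biopython 1.88 and matplotlib 3.10.9.

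Values of each library are given for members called in a test and for those with the largest range of stage means, up to 10 in all, and both scores for corrected members. Other sites with an unadjusted p under 0.05 were named after their values were seen. The members, lists and tests were chosen with earlier results of these data known. Alternatives covered the scale, flanks, coverage, model, correction, barcode, read-end kind, replicate number and leaving out libraries.

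Deviations from stage means were correlated between libraries of the same replicate number. Between 32-cell, 12-somite and protruding-mouth these correlations were 0.199 to 0.588 in 9 pairs, and between egg and these stages -0.575 to -0.00420 in 9 pairs. The labels do not state that libraries of the same number belong together. The correlations were positive within these 3 later stages and negative with the egg, and 12-somite and protruding-mouth libraries of the same number also share a barcode. Egg and 32-cell libraries that share a barcode but not a number were correlated too, at 0.568 for 32-cell 2 and 0.443 for 32-cell 3. The main fit held neither the number nor the barcode.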

Additional observations from a re-analysis of the deposited data

How the results depend on the processing

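The fall of Um287 from egg to adult tail passed under the 22 alternatives that gave a value, and its fall from protruding-mouth under 10 of 23. Leaving out a 32-cell, 12-somite or protruding-mouth library kept the egg-to-adult difference as it was and changed only the estimate of spread. The barcode block, single read-end kinds and the replicate block gave no value for it. For adult tail against egg, 2 members passed with corrected scores. For 32-cell against egg, 1 passed with the barcode as a block, and leaving out 1 library gave 0 to 1, with 1 (Cm346) without 32-cell library 1. For 12-somite against 32-cell, 1 (Gm509) passed with corrected scores and 1 with only these stages in the fit. For adult tail against protruding-mouth, 0 passed with 2 flanking positions, with trend and robust on, in the quasi-binomial model and with only these stages, and 2 with corrected scores. There the logit scale and the barcode block each gave 1, Cm346 in place of Um287. Leaving out 1 library gave 0 to 2: 0 without egg 2, 32-cell 3, protruding-mouth 1 or 3, adult A or adult B, 2 without egg 1 (Um287 and Um428), and 1 (Um354) without protruding-mouth 2. Over all 5 stages 2 passed on the logit scale and 2 with corrected scores, and 0 passed in the quasi-binomial model, with 5' ends only, with 3' ends only and in the 4 stages without adult tail, where adult libraries do not enter the last 3. Leaving out 1 library gave 0 to 2, with 0 without adult A or adult B and 2 (Um287 and Cm346) without 32-cell library 1. With 1 adult library the test assumes that it varies like the other stages. Um286 changed sign with 3' ends only, to 0.0598 for 32-cell against egg and -0.0469 for protruding-mouth against 12-somite. Few of the read ends beside Um286 were 3' ends, 6.87% of the weighted flanking means. The cause of these changes was not tested, other than fewer libraries where libraries were left out.

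With the replicate number as a block, in the 4 numbered stages, 0 members passed over the stages, where the adult tail does not enter, and this block changed no other call. The fits with 3' read ends only, with listed sites left out of the flanks and with the replicate block within 32-cell, 12-somite and protruding-mouth were chosen after seeing the data. A flanking minimum of 50 read ends left 95 sites and changed no count. It left out 3 members, Am484, Gm509 and Am512, so that fit did not test the difference at Gm509. Leaving listed sites out of the flanks changed no count either. The barcode block gave no value for adult tail against egg, 12-somite against 32-cell and all 5 stages, and single read-end kinds and the replicate block gave none for adult comparisons. Of the 105 stage means, 21 moved by more than 1 SD with 2 flanking positions, 1 with corrected scores and 4 with listed sites left out of the flanks. Depth limits single values, since Um287 held 5 read ends in 12-somite 3 and 15 in adult A.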

Other observations

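Other positions of the 5' domain are known to be methylated in human 18S rRNA but are not among the listed zebrafish sites. They were placed by their distance to the nearest listed site, and were chosen from general knowledge after the listed sites were seen. At the position of human A159, 7 nt before Am166, the score ranged from 0 to 0.444 over the 14 libraries, with a median of 0.186. At that of C174, 2 nt after Um172, it was 0 in 14 of 14 libraries. At that of A590, 11 nt before Gm601, it ranged from 0 to 0.772, with a median of 0.319. At that of A576, 25 nt before Gm601, it ranged from 0.299 to 0.786, with a median of 0.578. The stage means of this last position, 0.441 to 0.722, were below the 95th percentile of the unlisted positions in egg, 32-cell, protruding-mouth and adult tail and above it, 0.722 against 0.633, at 12-somite. By its mean over the libraries, 0.559, it ranked 14 among the unlisted positions that align between both rRNAs. The stretch holds 663 unlisted positions in early and 627 in late rRNA. No test was applied.

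Among the unlisted positions of the stretch, the one with the highest mean over the 14 libraries was the G at position 16 of both rRNAs, at 0.663. It scored at least 0.75 in 3 of the 14 libraries. Of 663 unlisted early positions, 1 scored at least 0.75 in each 32-cell library and 1 in each 12-somite library, and 0 did so in the egg libraries.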
